A study of Mus musculus with 11 samples.

Results

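The Wnt ligands, receptors and effectors described here were 52 genes of 24421 in a count table of mouse oocytes and embryos. They were chosen by symbol: the Wnt ligands, the Frizzled receptors, Lrp5 and Lrp6, the Dishevelled, Axin, Apc and Gsk3 genes, Ctnnb1, the TCF/LEF factors, Dkk1 to Dkk4, Porcn, Wls, Znrf3 and Rnf43. The rule uses no expression value. All 52 symbols were in the table, and 33 of them reached a mean of 1 CPM in at least 1 group. CPM is the usual depth-scaled count, the reads of a gene relative to all counted reads of its library.

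The study sequenced RNA of oocytes arrested in metaphase II and of late 2-cell embryos, with and without maternal Daxx, whose protein deposits the histone variant H3.3. Control females, on a mixed C57BL/6J and 129/Sv background and older than 8 weeks, carried floxed Daxx (Daxx f/f) and no Cre. Knockout females carried the same floxed alleles and in addition the Zp3-cre transgene, which is active in growing oocytes, so the somatic cells of the follicle are not its target. All females were superovulated with PMSG and hCG, and oocytes were taken 20 hours after hCG. Such oocytes were also fertilised in vitro with sperm of JF1 males, and the embryos were lysed 33 hours later. The embryos of knockout females are called maternal knockout embryos here, because their paternal genome came from JF1 males. Every library pooled 50 oocytes or embryos of 2 to 3 females. The groups were 3 libraries of control oocytes, 3 of knockout oocytes, 3 of control embryos and 2 of maternal knockout embryos (replicates 2 and 3), and values are listed below in replicate order.

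Libraries held 32582998 to 39798586 counted reads in oocytes and 17978192 to 25308468 in embryos. Daxx itself lay at 86.2 to 97.2 CPM in control oocytes, 7.83 to 8.40 CPM in knockout oocytes, 35.2 to 46.7 CPM in control embryos and 22.8 to 25.5 CPM in maternal knockout embryos. It was lower in every knockout library than in every control library of the same stage. All 10 oocyte markers were detected in every group, with summed levels of 13156 to 13712 CPM over the 6 oocyte libraries. The 8 measured markers of 2-cell embryos summed to 2.96 to 8.49 CPM in oocytes and to 537 to 748 CPM in embryos. Lars2 reads made up 1.85% of control embryo replicate 2 and 1.81% of maternal knockout embryo replicate 2, against 0.482% to 0.871% in the other embryo libraries. Calls, and reported medians over all tested members, are given both ways where they change without those 2 libraries.

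Wnt proteins are secreted lipid-modified ligands that bind a Frizzled receptor together with the co-receptor Lrp5 or Lrp6. Without a ligand, a complex of Axin, Apc and the Gsk3 kinases marks beta-catenin (Ctnnb1) for destruction. With a ligand, Dishevelled proteins are recruited to the receptor, beta-catenin accumulates, and it acts in the nucleus through TCF/LEF factors on target genes. Other Wnt signals run through Frizzled and Dishevelled without beta-catenin and set cell polarity. In the mouse, the passage from the oocyte to the late 2-cell embryo replaces much of the stored maternal RNA with transcripts of the embryo's own genome.

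Between control oocytes and control embryos most of the tested members changed, and the Frizzled receptors mostly rose while Lrp5, Ctnnb1 and Lef1 fell. Of 36 members with enough reads for the test, 18 were higher in embryos and 15 were lower (edgeR quasi-likelihood test, adjusted p under 0.05 over all genes). Among all genes tested, 43.1% were called higher and 40.0% lower at this step, so the share of members called is near that of any gene. Libraries of the groups did not overlap for 32 of the 36 members, against 85.0% of all genes. From knockout oocytes to maternal knockout embryos, 19 of 41 tested members were higher and 16 lower, with 42.5% and 37.7% of all genes. The members' median log2 change was 0.22 in controls and 0.57 in knockouts, beside 0.07 and 0.09 for all genes. In controls Wnt7b, Wnt8a, Wnt11, Porcn, Fzd1 and Fzd9 had enough reads only with the embryos. All were called higher, so the filter leans the count and median upward. With a minimum of 1 CPM the medians were -0.09 and -0.01, beside 0.03 and 0.02. Without both embryo libraries over 1% Lars2 they were 0.49 and -0.20, beside 0.08 and 0.003. The control and the knockout stage comparison share no library. Of the 35 members tested in both, 15 were called higher in both, 15 lower in both and none in opposite directions. CPM are shares of a library, so they do not show whether the amount of a transcript per oocyte or embryo changed. In pooled material, fewer cells with a transcript and less of it per cell cannot be told apart.

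**Figure D1:**
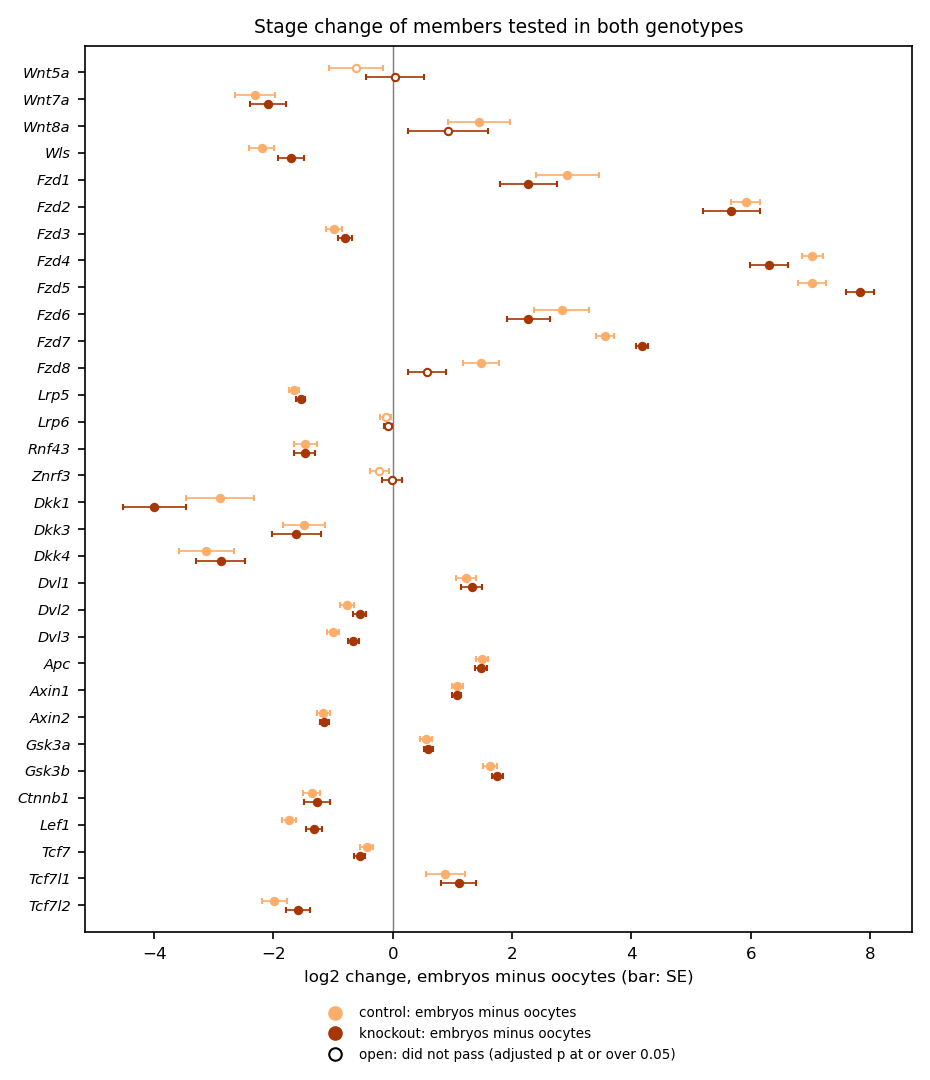
Log2 change from oocytes to 2-cell embryos (x axis) for 32 members tested in both genotypes (y axis), with bars of 1 SE and open points for changes that did not pass. Fzd9, Wnt7b and Porcn are left out because an oocyte group held 0 to 2 reads of them. Frizzled genes other than Fzd3 lie right of 0, while Lrp5, the Dkk genes, Ctnnb1 and Lef1 lie left of it in both genotypes.

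Ligand transcripts were scarce at both stages. Of 19 Wnt ligands, only Wnt7a in oocytes and Wnt7b in embryos passed 1 CPM in controls, and the ligands summed to 5.35 ± 0.800 CPM in control oocytes (SD, n = 3), 6.56 ± 0.799 CPM in knockout oocytes (SD, n = 3), 7.496 ± 1.55 CPM in control embryos (SD, n = 3), 10.98 ± 5.15 CPM in maternal knockout embryos (SD, n = 2). The 17 ligands under 1 CPM in every group were Wnt1, Wnt2, Wnt2b, Wnt3, Wnt3a, Wnt4, Wnt5a, Wnt5b, Wnt6, Wnt8a, Wnt8b, Wnt9a, Wnt9b, Wnt10a, Wnt10b, Wnt11 and Wnt16, together with Fzd10 and Dkk2 outside the ligands. Their highest level in any library was 1.04 CPM, and 6 of the ligands were at 0 reads throughout the control oocytes.

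In control oocytes Wnt7a stood at 3.41, 3.67 and 4.19 CPM, in knockout oocytes at 5.500, 4.28 and 4.68, in control embryos at 0.556, 1.25 and 0.521 and in maternal knockout embryos at 1.54 and 0.773. This ligand, known from neural and reproductive tract development, was higher in every oocyte library than in every embryo library. It fell between control stages, with a log2 change of -2.31 ± 0.34 (SE, adjusted p = 4.77e-05, edgeR). The libraries held Wnt7b at 0.0614, 0 and 0 CPM in control oocytes, 0.0524, 0.0797 and 0.185 in knockout oocytes, 2.34, 1.46 and 4.47 in control embryos and 6.68 and 2.85 in maternal knockout embryos. Its close relative Wnt7b moved the other way: 2 reads in all control oocytes became 173 reads in control embryos, a ratio of 159.3 (95% interval from counting, 43.5 to 1326). The interval covers counting error only. Wnt7b overlaps the gene AU022754, which was at 0.347 CPM or less in every library. Weaker ligands with no read in control oocytes were set against a floor of 3 reads over that group. The observed level in control embryos was 19.0-fold above this floor for Wnt11, 12.3-fold for Wnt2b, 11.7-fold for Wnt4 and 7.98-fold for Wnt16. The floor bounds the oocyte level only, and the 31, 20, 19 and 13 embryo reads carry their own counting error. Of these 4 only Wnt11 had enough reads for the test, and Wnt16, with 6, 0 and 7 reads in the control embryo libraries, was missing from 1 of them. Wnt2b shares 4524 bases with St7l, a gene at 5.25 CPM in control oocytes and 16.5 CPM in control embryos, and how strand was handled in counting is unknown here, so the Wnt2b value is uncertain. Wnt8a was called higher in control embryos (log2 change 1.44, SE 0.52, edgeR adjusted p = 0.0230), and this call did not hold when replicate 1 or 2 of the control oocytes or replicate 2 or 3 of the control embryos was left out, with adjusted p from 0.0714 to 0.0941.

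Porcn and Wls act on every ligand. Porcn is the acyltransferase that adds the lipid to Wnt proteins, and Wls carries the modified ligand to the cell surface. Levels of Porcn were 0.0614, 0.0503 and 0.156 CPM in control oocytes, 0.0262, 0.0266 and 0 in knockout oocytes, 3.34, 2.82 and 4.78 in control embryos and 6.12 and 3.96 in maternal knockout embryos. All embryo libraries lay above all oocyte libraries. Porcn rose in controls with a log2 change of 5.25 ± 0.44 (SE, adjusted p = 3.50e-07, edgeR). In knockouts, 2 reads in oocytes stood against 237 in embryos, a ratio of 292.5 (95% interval from counting, 80.1 to 2429). For Wls the values were 8.81, 7.61 and 7.76 CPM in control oocytes, 9.22, 10.5 and 7.54 in knockout oocytes, 1.61, 2.14 and 1.61 in control embryos and 3.28 and 2.46 in maternal knockout embryos. The carrier fell in both genotypes, with a log2 change of -2.197 ± 0.21 (SE, adjusted p = 1.22e-06, edgeR) in controls and a log2 change of -1.704 ± 0.22 (SE, adjusted p = 6.38e-05, edgeR) in knockouts. The transcripts for the ligand-modifying and the ligand-carrying protein went in opposite directions between the stages.

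Frizzled receptors, the seven-pass membrane proteins that bind the ligands, mostly rose. Of 10 Frizzled genes, 9 were tested in controls, 8 rose and Fzd3 fell, where 43.1% of all genes were called higher and 40.0% lower. Fzd1 and Fzd9 had enough reads only with the embryos. In knockouts all 10 were tested, 7 rose and Fzd3 fell again, while Fzd8 and Fzd10 did not pass. There 42.5% of all genes were called higher and 37.7% lower. The median log2 change of the tested receptors was 3.56 in controls and 3.22 in knockouts. Summed over the family, levels were 94.8 ± 9.12 CPM in control oocytes, 89.4 ± 9.06 CPM in knockout oocytes, 558 ± 44.9 CPM in control embryos, 788 ± 109.6 CPM in maternal knockout embryos.

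Fzd7 lay at 26.2, 26.5 and 38.3 CPM in control oocytes, 31.5, 27.1 and 31.6 in knockout oocytes, 339, 370.2 and 387 in control embryos and 602 and 522 in maternal knockout embryos. Fzd7, known as the main Frizzled of pluripotent stem cells, was the most abundant Frizzled per length at both stages. It rose with a log2 change of 3.56 ± 0.15 (SE, adjusted p = 1.04e-09, edgeR) in controls and a log2 change of 4.17 ± 0.096 (SE, adjusted p = 1.05e-09, edgeR) in knockouts, which are 11.8-fold and 18.1-fold. Fzd5 was measured at 0.645, 0.352 and 0.364 CPM in control oocytes, 0.393, 0.372 and 0.132 in knockout oocytes, 58.3, 49.8 and 71.1 in control embryos and 79.7 and 63.3 in maternal knockout embryos. In control oocytes Fzd4 stood at 0.368, 0.302 and 0.286 CPM, in knockout oocytes at 0.262, 0.425 and 0.847, in control embryos at 40.3, 42.1 and 45.98 and in maternal knockout embryos at 49.1 and 35.3. Both genes, Fzd5 a receptor needed for the yolk sac and eye and Fzd4 a receptor of vascular development, lay under 1 CPM in every oocyte library and above 35 CPM in every embryo library. Fzd5 rose with a log2 change of 7.03 ± 0.23 (SE, adjusted p = 1.60e-10, edgeR) in controls and a log2 change of 7.83 ± 0.24 (SE, adjusted p = 5.29e-09, edgeR) in knockouts. Fzd4 rose with a log2 change of 7.03 ± 0.18 (SE, adjusted p = 3.15e-11, edgeR) in controls and a log2 change of 6.304 ± 0.32 (SE, adjusted p = 2.06e-07, edgeR) in knockouts. Fzd4 shares 338 bases with Tmem135, whose mean level was 52.1 CPM in control oocytes and 21.7 CPM in control embryos, the opposite order.

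The libraries held Fzd2 at 0.399, 0.704 and 0.521 CPM in control oocytes, 1.28, 0.744 and 0.847 in knockout oocytes, 26.1, 34.1 and 41.3 in control embryos and 74.05 and 28.2 in maternal knockout embryos. Among the embryo libraries Fzd2 was highest in maternal knockout replicate 2 and lowest in control replicate 1. It rose with a log2 change of 5.91 ± 0.25 (SE, adjusted p = 8.75e-10, edgeR) in controls and a log2 change of 5.67 ± 0.48 (SE, adjusted p = 6.75e-05, edgeR) in knockouts. Levels of Fzd9 were 0, 0 and 0 CPM in control oocytes, 0, 0.0532 and 0 in knockout oocytes, 15.02, 13.4 and 25.8 in control embryos and 20.03 and 22.9 in maternal knockout embryos. No read of Fzd9 was counted in control oocytes, so it was at least 688-fold higher in control embryos. In knockouts 2 oocyte reads stood against 982 embryo reads, a ratio of 1212 (95% interval from counting, 334.6 to 10020). For Fzd3 the values were 64.4, 56.7 and 62.6 CPM in control oocytes, 59.8, 47.7 and 56.2 in knockout oocytes, 37.2, 29.5 and 27.5 in control embryos and 31.1 and 33.7 in maternal knockout embryos. Fzd3, a receptor known for axon guidance and planar polarity, was the exception. It fell with a log2 change of -0.99 ± 0.13 (SE, adjusted p = 2.59e-05, edgeR) in controls and a log2 change of -0.799 ± 0.12 (SE, adjusted p = 2.07e-04, edgeR) in knockouts.

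The weaker receptors stayed at a few CPM. Fzd1 lay at 0.135 ± 0.0145 CPM (SD) in control oocytes, 0.220 ± 0.0294 in knockout oocytes, 1.06 ± 0.668 in control embryos and 1.11 ± 0.612 in maternal knockout embryos. Fzd6 was measured at 0.224 ± 0.134 CPM (SD) in control oocytes, 0.448 ± 0.144 in knockout oocytes, 1.61 ± 0.499 in control embryos and 2.25 ± 0.450 in maternal knockout embryos. In control oocytes Fzd8 stood at 1.40 ± 0.482 CPM (SD), in knockout oocytes at 2.04 ± 0.115, in control embryos at 3.97 ± 1.18 and in maternal knockout embryos at 3.12 ± 1.68. All 3 were called higher in control embryos. The call of Fzd1 in knockouts was lost without maternal knockout embryo replicate 2 (edgeR adjusted p = 0.0602), and Fzd8 was not called there (log2 change 0.57, SE 0.32, edgeR adjusted p = 0.13). Without maternal knockout embryo replicate 3 Fzd8 was called higher (edgeR adjusted p = 0.00468, log2 change 0.99), and without replicate 2 its log2 change was -0.11.

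**Figure D2:**
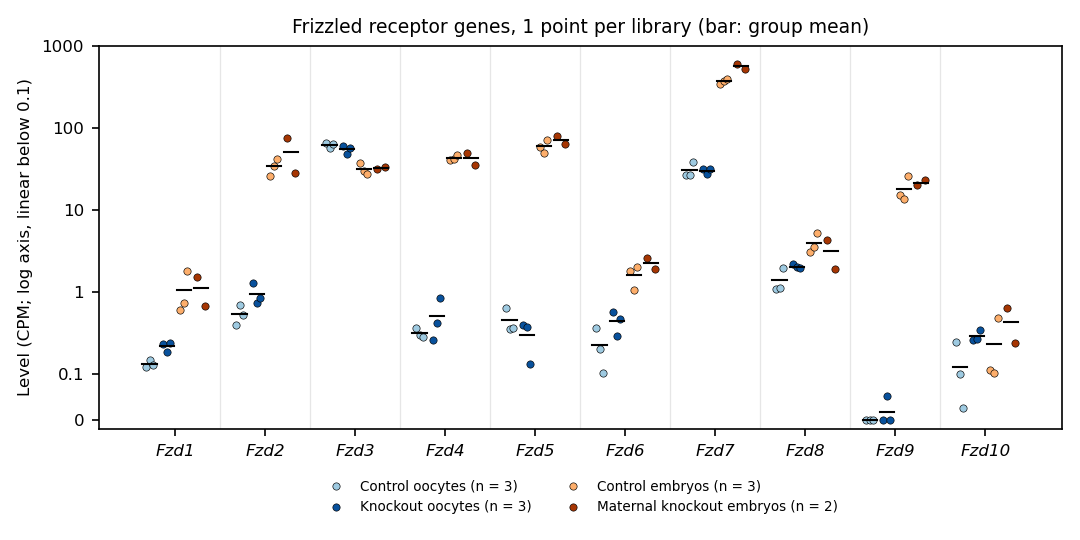
Level of each Frizzled gene in CPM (y axis, logarithmic above 0.1 and linear below), with 1 point per library and a bar at each group's mean, by group (colours). Fzd2, Fzd4, Fzd5, Fzd7 and Fzd9 are each higher in all 5 embryo libraries than in all 6 oocyte libraries, while Fzd3 is lower in the embryos.

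Reads per kilobase of the deposited gene width allow receptors to be compared with each other. In control oocytes Fzd7 made up 52.4% ± 4.90 of the summed Frizzled CPM per kilobase and Fzd3 40.5% ± 4.54 (SD, n = 3), so the 2 receptors held nearly all of it. In control embryos Fzd7 held 64.3% ± 2.89, followed by Fzd4 with 9.82% ± 0.308, Fzd2 with 7.82% ± 1.05, Fzd5 with 7.28% ± 0.882 and Fzd9 with 7.12% ± 1.94. The shares of Fzd2, Fzd5 and Fzd9 did not differ beyond their SDs. Fzd3 fell to 2.11% ± 0.533 of the family in control embryos. In maternal knockout embryos Fzd7 held 70.1% ± 3.35 (SD, n = 2).

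**Figure D3:**
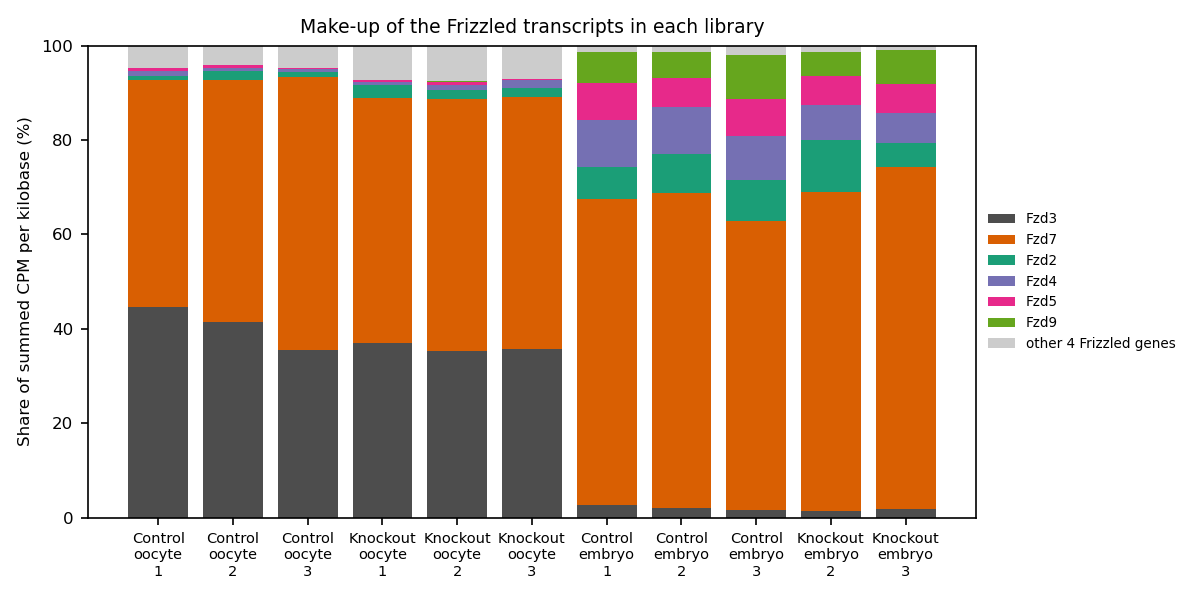
Share of each Frizzled gene in the summed CPM per kilobase of the 10 Frizzled genes (y axis, percent) for each of the 11 libraries (x axis). Oocyte libraries are split between Fzd7 and Fzd3, and embryo libraries between Fzd7 and a group of Fzd4, Fzd2, Fzd5 and Fzd9 that is almost lacking in oocytes.

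The sequences just before the gene starts of these receptors are shown for the 4 that rose to more than 10 CPM in every embryo library and have a window in the sequence table. They are the 250 bases upstream of the start in RefSeq (GRCm38.p6), written 5′ to 3′ on the strand of the gene. Fzd4 is at chr7:89404116-89404365 (plus strand), Fzd5 at chr1:64737751-64738000 (minus strand), Fzd7 at chr1:59481897-59482146 (plus strand) and Fzd9 at chr5:135251048-135251297 (minus strand). Capitals mark a match to the TCF/LEF core motif, searched as CTTTGAT or CTTTGTT on both strands.
Fzd4: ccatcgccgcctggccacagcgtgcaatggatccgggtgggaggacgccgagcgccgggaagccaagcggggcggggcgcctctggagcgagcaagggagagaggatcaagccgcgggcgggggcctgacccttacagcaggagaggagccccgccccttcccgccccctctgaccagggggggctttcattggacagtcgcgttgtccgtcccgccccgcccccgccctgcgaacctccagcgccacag
Fzd5: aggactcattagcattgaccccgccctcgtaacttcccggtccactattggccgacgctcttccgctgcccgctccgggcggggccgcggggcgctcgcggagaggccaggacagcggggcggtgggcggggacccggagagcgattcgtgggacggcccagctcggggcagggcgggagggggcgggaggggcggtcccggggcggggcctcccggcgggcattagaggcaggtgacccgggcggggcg
Fzd7: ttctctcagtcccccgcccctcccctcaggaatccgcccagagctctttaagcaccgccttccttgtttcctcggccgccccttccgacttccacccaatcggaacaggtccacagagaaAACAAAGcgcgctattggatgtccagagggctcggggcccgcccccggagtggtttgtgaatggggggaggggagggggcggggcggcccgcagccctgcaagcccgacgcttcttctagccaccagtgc
Fzd9: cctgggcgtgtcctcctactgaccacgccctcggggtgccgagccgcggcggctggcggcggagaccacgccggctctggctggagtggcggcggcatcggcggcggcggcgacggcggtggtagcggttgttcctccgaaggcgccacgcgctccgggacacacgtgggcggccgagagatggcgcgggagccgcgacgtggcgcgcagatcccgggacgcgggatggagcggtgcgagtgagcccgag
Only the Fzd7 window of these 4 held a match, AACAAAG, which is CTTTGTT on the opposite strand and ends 123 bases before the gene start. The table held 46 windows for 36 of the members, because some genes have several starts, and 5 windows held a match (10.9%: Dkk1, Fzd7, Tcf7l2, Wnt11 and Wnt5b), and 2648 of 32851 windows of all genes did (8.06%). A match is a description of letters, not a site. The dinucleotide CG occurred 25 times in the Fzd4 window, 32 in Fzd5, 17 in Fzd7 and 42 in Fzd9. The scarcer Fzd1 and Fzd10 also have windows, with 12 and 37 of them. The median was 20.5 over the members' windows and 6 over all windows.

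Lrp5 and Lrp6, the co-receptors that pair with Frizzled, separated. The libraries held Lrp5 at 483, 469.7 and 459 CPM in control oocytes, 484, 475 and 468 in knockout oocytes, 138, 161 and 157 in control embryos and 182 and 156 in maternal knockout embryos. Levels of Lrp6 were 488, 454 and 477 CPM in control oocytes, 433, 428 and 445 in knockout oocytes, 479, 413 and 435 in control embryos and 433 and 421 in maternal knockout embryos. Lrp5 was lower in all embryo libraries than in all oocyte libraries, and the Lrp6 ranges of the stages overlapped. Lrp5 fell with a log2 change of -1.65 ± 0.09 (SE, adjusted p = 5.41e-09, edgeR) in controls and a log2 change of -1.54 ± 0.08 (SE, adjusted p = 9.22e-08, edgeR) in knockouts. Lrp6 did not pass in either (log2 change -0.12, SE 0.09, edgeR adjusted p = 0.22 in controls and log2 change -0.07, SE 0.07, adjusted p = 0.34 in knockouts). Without control embryo replicate 1 it was called lower in controls (edgeR adjusted p = 0.0173, log2 change -0.20). Per kilobase, Lrp5 made up 61.8% ± 0.863 of the co-receptor pair in control oocytes and 35.9% ± 3.54 in control embryos (SD, n = 3), so the order of the pair turned.

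Rnf43 and Znrf3 are membrane ubiquitin ligases that remove Frizzled receptors from the cell surface and so damp the signal. For Rnf43 the values were 13.5 ± 0.867 CPM (SD) in control oocytes, 12.6 ± 1.70 in knockout oocytes, 4.96 ± 1.46 in control embryos and 4.69 ± 0.0747 in maternal knockout embryos. It fell with a log2 change of -1.47 ± 0.198 (SE, adjusted p = 2.53e-05, edgeR) in controls and a log2 change of -1.48 ± 0.17 (SE, adjusted p = 3.60e-05, edgeR) in knockouts. Znrf3 lay at 28.1 ± 2.84 CPM (SD) in control oocytes, 27.6 ± 1.59 in knockout oocytes, 24.4 ± 4.83 in control embryos and 28.3 ± 9.24 in maternal knockout embryos. Znrf3 did not pass (log2 change -0.23, SE 0.16, edgeR adjusted p = 0.20 in controls and log2 change -0.01, SE 0.17, adjusted p = 0.94 in knockouts). It was called lower in controls without control embryo replicate 1 (edgeR adjusted p = 0.0129, log2 change -0.42) and in knockouts without maternal knockout embryo replicate 2 (edgeR adjusted p = 0.0143, log2 change -0.37).

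Dkk proteins are secreted, and Dkk1, Dkk2 and Dkk4 are known to block the Lrp co-receptors. They were low in oocytes and lower in embryos. Dkk1 was measured at 1.63, 1.46 and 0.937 CPM in control oocytes, 1.20, 1.62 and 1.35 in knockout oocytes, 0.0556, 0.0522 and 0.391 in control embryos and 0.119 and 0.0483 in maternal knockout embryos. In control oocytes Dkk4 stood at 1.72 ± 0.381 CPM (SD), in knockout oocytes at 1.42 ± 0.0826, in control embryos at 0.1895 ± 0.125 and in maternal knockout embryos at 0.195 ± 0.00311. The libraries held Dkk3 at 1.51 ± 0.309 CPM (SD) in control oocytes, 2.21 ± 0.748 in knockout oocytes, 0.542 ± 0.117 in control embryos and 0.751 ± 0.168 in maternal knockout embryos. No embryo library reached the lowest oocyte library of any of the 3. Dkk1 fell with a log2 change of -2.897 ± 0.57 (SE, adjusted p = 5.41e-04, edgeR) in controls and a log2 change of -3.999 ± 0.53 (SE, adjusted p = 7.52e-05, edgeR) in knockouts. Dkk4 fell with a log2 change of -3.12 ± 0.46 (SE, adjusted p = 5.17e-05, edgeR) and Dkk3 with a log2 change of -1.49 ± 0.35 (SE, adjusted p = 0.00176, edgeR), both in controls. Dkk2 had 0 to 4 reads in each group. The Dkk1 window, chr19:30549497-30549746 on the minus strand, is shown as a member that fell and holds the same motif, 91 bases before its start.
Dkk1: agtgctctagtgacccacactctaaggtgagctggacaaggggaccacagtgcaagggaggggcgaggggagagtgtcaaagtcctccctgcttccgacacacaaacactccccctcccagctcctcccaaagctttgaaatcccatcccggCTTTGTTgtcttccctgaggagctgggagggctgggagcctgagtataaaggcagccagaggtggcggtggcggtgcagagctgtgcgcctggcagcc
It held 6 CG dinucleotides, the median of all windows.

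Dishevelled proteins pass the signal from Frizzled to the inside of the cell. Levels of Dvl3 were 181, 176 and 166 CPM in control oocytes, 171, 168 and 163 in knockout oocytes, 77.8, 91.8 and 95.8 in control embryos and 101 and 117 in maternal knockout embryos. For Dvl2 the values were 28.5 ± 1.09 CPM (SD) in control oocytes, 29.6 ± 0.470 in knockout oocytes, 17.1 ± 0.773 in control embryos and 20.8 ± 1.76 in maternal knockout embryos. Dvl1 lay at 7.01 ± 1.07 CPM (SD) in control oocytes, 6.66 ± 1.28 in knockout oocytes, 16.6 ± 2.63 in control embryos and 17.2 ± 1.69 in maternal knockout embryos. Dvl2 and Dvl3 were lower in every embryo library than in every oocyte library, and Dvl1 was higher. Dvl3 fell with a log2 change of -1.003 ± 0.09 (SE, adjusted p = 1.10e-06, edgeR) in controls and a log2 change of -0.66 ± 0.09 (SE, adjusted p = 1.23e-04, edgeR) in knockouts. Dvl2 fell with a log2 change of -0.76 ± 0.12 (SE, adjusted p = 9.49e-05, edgeR) in controls and a log2 change of -0.55 ± 0.11 (SE, adjusted p = 8.74e-04, edgeR) in knockouts. Dvl1 rose with a log2 change of 1.22 ± 0.17 (SE, adjusted p = 3.37e-05, edgeR) in controls and a log2 change of 1.32 ± 0.18 (SE, adjusted p = 8.29e-05, edgeR) in knockouts. Dvl1 and Tas1r3 share 36 bases, and Tas1r3 stood at 0.132 CPM in control oocytes and 18.3 CPM in control embryos. Without a stated strand, the reads within those 36 bases cannot be told apart by gene. Per kilobase Dvl3 held 83.6% ± 0.450 of the family in control oocytes and 72.6% ± 1.05 in control embryos (SD, n = 3).

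In the destruction complex, 4 of 5 genes rose and Axin2 fell, in controls and in knockouts alike. Of all genes, 43.1% were called higher and 40.0% lower in controls, and 42.5% and 37.7% in knockouts. Apc was measured at 360.1, 318 and 370.3 CPM in control oocytes, 365, 300.3 and 366 in knockout oocytes, 1119.8, 933 and 955 in control embryos and 960.0 and 1024 in maternal knockout embryos. Apc is the large scaffold that binds beta-catenin, and its embryo levels were above all oocyte levels. It rose with a log2 change of 1.496 ± 0.104 (SE, adjusted p = 7.27e-08, edgeR) in controls and a log2 change of 1.48 ± 0.103 (SE, adjusted p = 7.96e-07, edgeR) in knockouts. In control oocytes Axin1 stood at 92.8, 86.2 and 94.4 CPM, in knockout oocytes at 86.7, 90.4 and 94.7, in control embryos at 187, 207 and 195 and in maternal knockout embryos at 206 and 188. The libraries held Axin2 at 369, 379.8 and 360.5 CPM in control oocytes, 366, 391 and 357 in knockout oocytes, 140.4, 190.2 and 174 in control embryos and 169 and 178 in maternal knockout embryos. Axin1 is the constitutive scaffold and Axin2 is its relative, best known as a target gene of Wnt signalling itself. The pair moved in opposite directions. Axin1 rose with a log2 change of 1.08 ± 0.09 (SE, adjusted p = 2.87e-07, edgeR) in controls and a log2 change of 1.07 ± 0.08 (SE, adjusted p = 1.14e-06, edgeR) in knockouts. Axin2 fell with a log2 change of -1.16 ± 0.11 (SE, adjusted p = 8.39e-07, edgeR) in controls and a log2 change of -1.15 ± 0.08 (SE, adjusted p = 8.66e-07, edgeR) in knockouts.

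Levels of Gsk3b were 56.6, 58.3 and 50.8 CPM in control oocytes, 53.95, 55.5 and 56.9 in knockout oocytes, 201, 158 and 161 in control embryos and 215 and 172 in maternal knockout embryos. For Gsk3a the values were 74.4, 72.1 and 69.1 CPM in control oocytes, 75.5, 80.3 and 76.7 in knockout oocytes, 95.9, 114 and 112 in control embryos and 120.5 and 121 in maternal knockout embryos. These are the kinases that phosphorylate beta-catenin, and both were higher in every embryo library. Gsk3b rose with a log2 change of 1.63 ± 0.12 (SE, adjusted p = 9.33e-08, edgeR) in controls and a log2 change of 1.75 ± 0.09 (SE, adjusted p = 1.18e-07, edgeR) in knockouts. Gsk3a rose less, with a log2 change of 0.56 ± 0.096 (SE, adjusted p = 1.89e-04, edgeR) in controls and a log2 change of 0.59 ± 0.08 (SE, adjusted p = 7.04e-05, edgeR) in knockouts. Gsk3a shares 1542 bases with 9130221H12Rik, which stood at 36.1 CPM in both control groups. Gsk3b shares 260 bases with BC031361, at 0.133 CPM in control oocytes and 4.38 CPM in control embryos.

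Beta-catenin and 3 of the 4 TCF/LEF factors were lower in embryos, where 40.0% of all genes were called lower in controls and 37.7% in knockouts. Ctnnb1 lay at 499, 498 and 511 CPM in control oocytes, 521, 508 and 535 in knockout oocytes, 248, 155 and 194 in control embryos and 290.1 and 160.1 in maternal knockout embryos. Lef1 was measured at 80.1, 83.7 and 78.95 CPM in control oocytes, 87.4, 89.2 and 88.4 in knockout oocytes, 25.5, 26.96 and 21.4 in control embryos and 31.3 and 41.8 in maternal knockout embryos. In control oocytes Tcf7 stood at 70.1, 70.7 and 78.3 CPM, in knockout oocytes at 99.3, 88.5 and 82.9, in control embryos at 60.6, 49.8 and 54.6 and in maternal knockout embryos at 67.1 and 59.7. No embryo library reached an oocyte library for Ctnnb1 or Lef1. It fell with a log2 change of -1.36 ± 0.14 (SE, adjusted p = 2.98e-06, edgeR) in controls and a log2 change of -1.27 ± 0.21 (SE, adjusted p = 0.00121, edgeR) in knockouts. Lef1, one of the factors that bring beta-catenin to DNA, fell with a log2 change of -1.74 ± 0.12 (SE, adjusted p = 5.56e-08, edgeR) in controls and a log2 change of -1.32 ± 0.14 (SE, adjusted p = 1.36e-05, edgeR) in knockouts. Tcf7 fell less, with a log2 change of -0.43 ± 0.11 (SE, adjusted p = 0.0029, edgeR) in controls and a log2 change of -0.56 ± 0.095 (SE, adjusted p = 4.40e-04, edgeR) in knockouts. Tcf7 shares 332 bases with Skp1, which stood at 1879 CPM in control oocytes and 221 CPM in control embryos, so its stage change is uncertain.

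The libraries held Tcf7l2 at 12.4 ± 1.26 CPM (SD) in control oocytes, 13.1 ± 1.12 in knockout oocytes, 3.16 ± 0.806 in control embryos and 4.49 ± 1.16 in maternal knockout embryos. It fell with a log2 change of -1.99 ± 0.21 (SE, adjusted p = 2.70e-06, edgeR) in controls and a log2 change of -1.59 ± 0.204 (SE, adjusted p = 6.37e-05, edgeR) in knockouts. Levels of Tcf7l1 were 0.946 ± 0.234 CPM (SD) in control oocytes, 1.003 ± 0.182 in knockout oocytes, 1.77 ± 0.400 in control embryos and 2.23 ± 0.484 in maternal knockout embryos. Tcf7l1, known as a repressor of pluripotency genes, was the factor that rose, but by little (log2 change 0.88, SE 0.32, edgeR adjusted p = 0.0236 in controls). That call did not hold when replicate 3 of the control oocytes or replicate 1 or 3 of the control embryos was left out, with adjusted p from 0.0672 to 0.0874. In knockouts it was called at an adjusted p of 0.00730 (edgeR, log2 change 1.10, SE 0.30) and lost without maternal knockout embryo replicate 2 (0.0566).

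**Figure D4:**
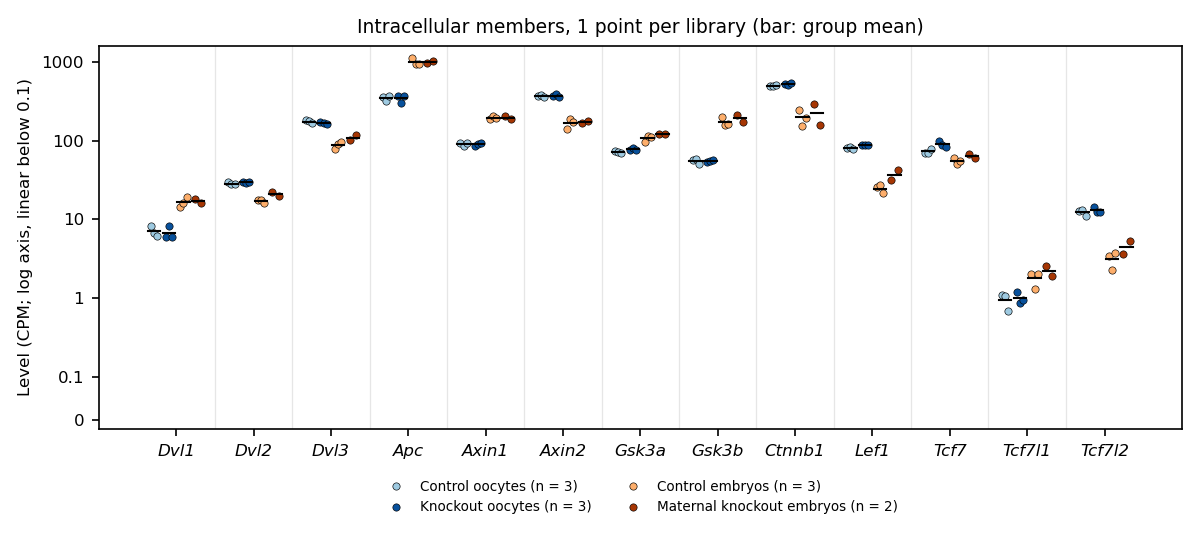
Level in CPM (y axis, logarithmic above 0.1 and linear below) of the Dishevelled genes, the destruction complex, Ctnnb1 and the TCF/LEF factors, with 1 point per library and a bar at each group's mean. Apc, Axin1, Gsk3a and Gsk3b are higher in all embryo libraries, and Axin2, Dvl2, Dvl3, Ctnnb1 and Lef1 are lower. Within a stage the genotypes overlap, except for Lef1, Tcf7 and Gsk3a in oocytes and Lef1, Dvl2, Dvl3 and Gsk3a in embryos. None of these genotype differences was called.

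Across the members, the order of levels per kilobase of control oocytes was led by Ctnnb1 (122.7 ± 1.77 CPM per kilobase), Axin2 (86.1 ± 2.25), Lrp5 (78.4 ± 1.96) and Lrp6 (48.4 ± 1.79, SD, n = 3), and these neighbours differed by more than their SDs. Dvl3 (33.9 ± 1.45) and Gsk3a (31.8 ± 1.19) followed, and their SDs overlap. In control embryos Apc (77.5 ± 7.88 CPM per kilobase) and Fzd7 (76.0 ± 5.08) led and did not differ beyond their SDs. Axin1 (51.9 ± 2.62), Ctnnb1 (48.5 ± 11.5), Gsk3a (47.6 ± 4.47) and Lrp6 (45.3 ± 3.44) came next. Neighbours in this order did not differ beyond their SDs, while Axin1 lay above Lrp6 by more than theirs. Fzd7 in control oocytes had been at 6.31 ± 1.44 CPM per kilobase.

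Other genes of the pathway were counted from 5 lists. Among secreted and surface modulators, 14 of 22 had enough reads in the control stage comparison, and 6 rose and 5 fell. Of all genes, 43.1% were called higher and 40.0% lower. Of the 14, 4 had enough reads only with the embryos, so this count and the median log2 change of 0.52 lean upward. Among the 10 that also had enough reads in oocytes alone, 2 rose and 5 fell, with a median of -0.64. Rspo2, an R-spondin that shields Frizzled from Rnf43 and Znrf3, had the smallest p of the 14. It was at 868 CPM in control oocytes and 314 CPM in control embryos. It fell, with a log2 change of -1.49 (adjusted p = 5.91e-08 in edgeR, SE 0.102). Dkkl1, a Dkk relative known from the testis, stood at 0.00868 CPM in control oocytes and 4.54 CPM in control embryos. Tpbg, a membrane inhibitor of Wnt signalling, stood at 0.0459 CPM in control oocytes and 2.20 CPM in control embryos, and Notum, the enzyme that removes the lipid from Wnt proteins, at 0 CPM in control oocytes and 1.60 CPM in control embryos. Of 18 other receptors and planar polarity genes, 7 rose and 8 fell, near the shares of all genes. Lgr6, an R-spondin receptor, fell with a log2 change of -2.92 (adjusted p = 2.92e-09 in edgeR, SE 0.14), and the polarity cadherin Celsr1 with -3.403 (adjusted p = 3.81e-09, SE 0.17). Scrib, a polarity scaffold, rose with 3.43 (adjusted p = 8.09e-09 in edgeR, SE 0.19).

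Of 25 partners of the destruction complex, all tested, 18 rose and 5 fell, where 43.1% of all genes were called higher and 40.0% lower. Their median log2 change was 0.52, beside 0.07 for all genes. Among the 23 that also had enough reads in oocytes alone, 16 rose and 5 fell, with a median of 0.44. Btrc, a subunit of the ubiquitin ligase that recognises phosphorylated beta-catenin, was among those that fell, from 309 CPM in control oocytes to 44.2 CPM in control embryos, with a log2 change of -2.83 (adjusted p = 4.71e-09 in edgeR, SE 0.14). Its paralog Fbxw11 rose, at 45.3 CPM in control oocytes and 129 CPM in control embryos (log2 change 1.49, SE 0.09, edgeR, adjusted p = 2.35e-08). Frat2, a Gsk3-binding inhibitor of the kinase, stood at 0.203 CPM in control oocytes and 13.97 CPM in control embryos. Of 24 nuclear cofactors 14 rose and 6 fell. Tle6, an oocyte member of the Groucho family that belongs to the subcortical maternal complex, fell with a log2 change of -3.97 (adjusted p = 5.19e-11 in edgeR, SE 0.11), and its relative Tle3, a corepressor, stood at 0.109 CPM in control oocytes and 99.1 CPM in control embryos. The acetyltransferase Ep300 rose with 2.86 (adjusted p = 7.09e-10 in edgeR, SE 0.12).

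Genes known as Wnt targets in other tissues were tested for 19 of 26 names, and 15 rose and 3 fell, with 43.1% and 40.0% of all genes. Of the 19, 9 had enough reads only with the embryos, where they are high, so this count and the median log2 change of 3.58 lean upward by the filter. Among the 10 that also had enough reads in oocytes alone, 6 rose and 3 fell, and their median was 1.06. Nkd1, a feedback inhibitor of Dishevelled, fell from 354 CPM in control oocytes to 30.5 CPM in control embryos, with a log2 change of -3.56 (adjusted p = 7.18e-11 in edgeR, SE 0.11). Gja1, the gap junction protein connexin 43, stood at 0.0205 CPM in control oocytes and 59.4 CPM in control embryos, Vegfa at 0 CPM in control oocytes and 37.7 CPM in control embryos and Mycn at 0.0168 CPM in control oocytes and 9.002 CPM in control embryos. Most of these targets are also under other controls, and Lgr5 and Notum stand on a second list. In knockouts the lists gave 6 higher and 4 lower of 15 modulators, 7 and 9 of 18 receptors and polarity genes, 17 and 5 of 25 partners, 14 and 5 of 24 cofactors, and 15 and 3 of 21 targets, where 42.5% of all genes were called higher and 37.7% lower. For the modulators and for the receptors and polarity genes, the share called higher lies near that of all genes. The share called lower lies below that of all genes for the modulators and above it for the receptors and polarity genes. These knockout counts were not split by the filter. Markers of granulosa and cumulus cells summed to 37.7 to 42.8 CPM in control oocytes and 59.9 to 74.6 CPM in control embryos. The higher embryo sum came from Amhr2, and without it the sums were 37.6 to 42.7 CPM and 19.4 to 26.6 CPM. Of 10 such markers tested, 4 were higher in embryos and 5 lower, with a median log2 change of -0.55. Of 18 such markers 13 and 11 lay under 1 CPM, Foxl2 and Ptx3 had no read in control oocytes, and Inha had none in control embryos. The part of such cells in the stage changes was not tested.

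The oocyte comparison asks whether the loss of Daxx during oocyte growth changed the stored transcripts. Only knockout females carried Cre, so the transgene and the loss of Daxx cannot be told apart. Of 31 members tested, none was called between knockout and control oocytes by edgeR, where 0.583% of all genes were called. At an unadjusted p under 0.05 there were 5 members (10.3% of all genes), and DESeq2 called 1. The median log2 change of the members was 0.04, beside 0.000172 for all genes. Libraries of the groups did not overlap for 8 members (15.7% of all genes): Fzd8, Lef1, Tcf7, Wnt2, Wnt7a, Fzd2 and Gsk3a were higher in all knockout libraries, and Lrp6 was lower. The gene 9130221H12Rik, which shares 1542 bases with Gsk3a, was also higher, at 34.4 to 37.1 CPM in control and 37.9 to 40.5 CPM in knockout oocytes. Without a stated strand, reads in the shared bases cannot be told apart, so the Gsk3a difference is uncertain.

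The smallest p among the members was that of Tcf7, at chr11:52246527-52283383 (GRCm38.p6), whose 3 knockout values of 82.9 to 99.3 CPM lay above the control values of 70.1 to 78.3 CPM. The difference was a log2 change of 0.29 ± 0.07 (SE, adjusted p = 0.13, edgeR). Its adjusted p lay under the threshold in 3 of 14 alternatives: with DESeq2 (0.0229), without the low-count filter (0.0325) and without control oocyte replicate 3 (0.0290). Over all alternatives it ran from 0.0229 to 0.71. Skp1, which overlaps Tcf7, had 1849 to 1925 CPM in the control libraries and 1751 to 1873 CPM in the knockout libraries. Lrp6 differed by a log2 change of -0.14 ± 0.04 (SE, adjusted p = 0.25, edgeR), with 428 to 445 CPM in knockout and 454 to 488 CPM in control oocytes. For Fzd2 the difference was a log2 change of 0.79 ± 0.33 (SE, adjusted p = 0.42, edgeR), at levels of 1.28 CPM or less. Lef1 had a log2 change of 0.11 ± 0.05 (SE, adjusted p = 0.46, edgeR) and Wnt7a a log2 change of 0.34 ± 0.15 (SE, adjusted p = 0.47, edgeR). None of these 4 was called under any alternative. All 5 of the beta-catenin and TCF/LEF genes had a positive log2 change, from 0.03 for Ctnnb1 to 0.29 for Tcf7. Over all 31 members 17 were positive (54.8%, beside 50.1% of all genes). Other roles ran from 0 of 2 co-receptors and 1 of 5 destruction complex genes to 3 of 3 tested ligands.

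Markers of other cells were compared in the same libraries. No granulosa or cumulus marker of 9 tested and no 2-cell marker of 3 tested was called, and of 6 sperm and spermatid markers tested only Prm2 was, at 1.85 CPM in control and 5.46 CPM in knockout oocytes (log2 change 1.54, SE 0.18, edgeR adjusted p = 0.00277). The summed levels did not overlap between the genotypes. Granulosa and cumulus markers summed to 37.7 to 42.8 CPM in control and 45.6 to 48.3 CPM in knockout oocytes, with 13 of 18 under 1 CPM in each group, Foxl2 and Ptx3 without reads in controls and Amhr2 and Ptx3 in knockouts. Sperm and spermatid markers summed to 202 to 210 CPM and 215 to 223 CPM, nearly all of it Odf2, and to 6.56 to 6.94 CPM and 10.1 to 12.5 CPM without Odf2. Markers of 2-cell embryos summed to 2.96 to 3.88 CPM and 4.68 to 8.49 CPM, and to 2.96 to 3.499 CPM and 3.69 to 5.45 CPM without Tcstv1, which ran from 0 to 4.79 CPM in knockout oocytes. Their part in the values of the members was not tested. Of 83 tested genes of the 5 other pathway lists, none was called by edgeR or DESeq2, with 5 at an unadjusted p under 0.05 by edgeR and 3 by DESeq2.

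Maternal knockout and control embryos answer the same question after the embryo's own genome has been switched on. Of 35 members tested none was called by edgeR, where 0.026% of all genes were called, and DESeq2 called none either. At an unadjusted p under 0.05 there were 2 (3.19% of all genes). Libraries did not overlap for 7 members (17.8% of all genes), all higher in maternal knockouts: Dvl2, Dvl3, Fzd7, Lef1, Wnt2b, Gsk3a and Wls. For 9130221H12Rik, which overlaps Gsk3a, levels were 30.6 to 39.8 CPM in control and 36.6 to 53.3 CPM in maternal knockout embryos. The log2 change was above 0 for 28 of 35 members, beside 50.4% of all genes, and its median was 0.22 beside 0.00211.

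This share and median depended on the libraries used. Without maternal knockout replicate 2, 21 of 35 were above 0 and the median was 0.08. Without control replicate 2, 28 of 38 were above 0 and the median was 0.13. Leaving out control replicate 1, control replicate 3 or maternal knockout replicate 3 gave medians of 0.28, 0.19 and 0.27, with 75.7%, 78.8% and 79.5% of the members above 0. Without both replicates that held over 1% Lars2 reads, a setting chosen after seeing the data, 16 of 36 were above 0 and the median was -0.01. The summed oocyte markers were 1677 to 2025 CPM in control and 2171 to 2213 CPM in maternal knockout embryos, all 10 of them with reads in both groups, and their part in these values was not tested.

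Fzd7, the gene at chr1:59482147-59486955 on the plus strand, had the smallest p. Its 2 maternal knockout libraries, at 602 and 522 CPM, lay above the control range of 339 to 387 CPM. The difference was a log2 change of 0.59 ± 0.13 (SE, adjusted p = 0.34, edgeR), 1.502-fold. It passed the threshold without the low-count filter (adjusted p = 0.0316) and under no other of 14 alternatives, where adjusted p reached 1.00. Lef1, at 31.3 and 41.8 CPM against 21.4 to 27.0 CPM in controls, had a log2 change of 0.54 ± 0.199 (SE, adjusted p = 1.00, edgeR). Wls had a log2 change of 0.65 ± 0.35 (SE, adjusted p = 1.00, edgeR) and Dvl3 a log2 change of 0.27 ± 0.15 (SE, adjusted p = 1.00, edgeR). Wnt7b had a log2 change of 0.75 ± 0.44 (SE, adjusted p = 1.00, edgeR), and its control and maternal knockout libraries overlapped. Without the 2 libraries high in Lars2 the log2 change of Wnt7b was -0.24. Of 99 tested genes of the other pathway lists none was called by edgeR or DESeq2, with 2 and 1 at an unadjusted p under 0.05.

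**Figure D5:**
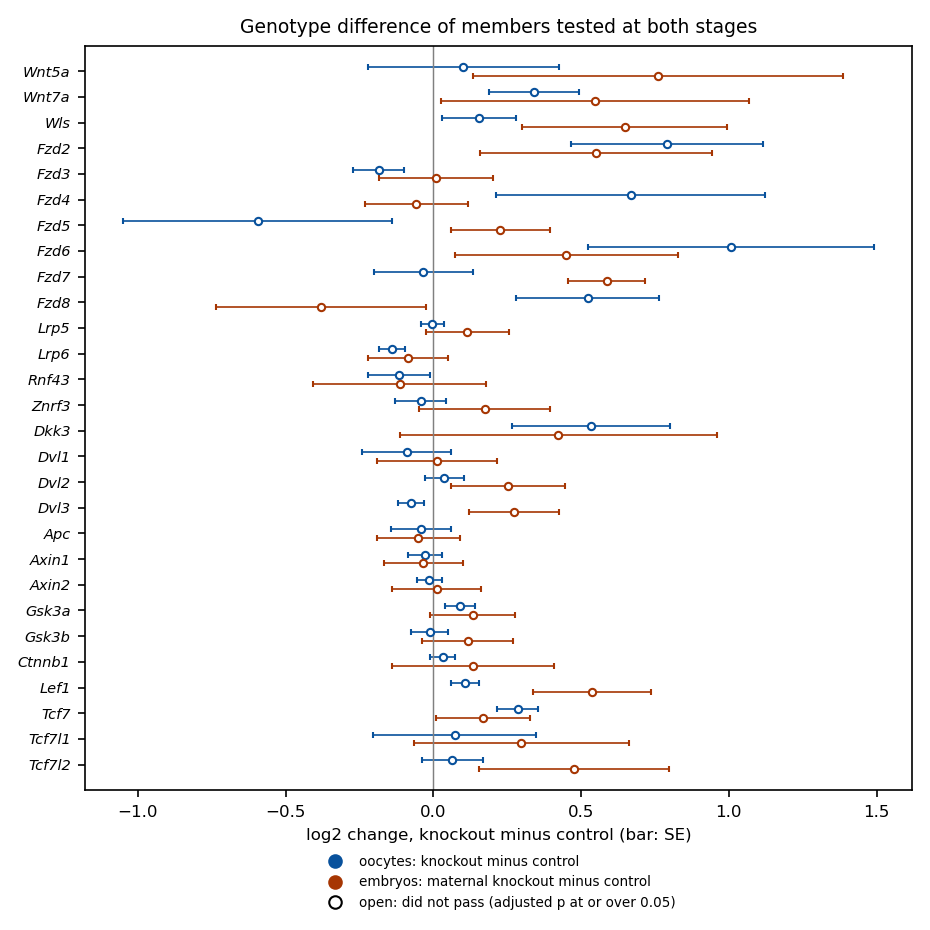
Log2 difference of knockout from control (x axis) in oocytes and in 2-cell embryos for the 28 members tested at both stages (y axis), with bars of 1 SE. All points are open because none passed, and Fzd7 in embryos and Tcf7 in oocytes lie farthest from 0 in units of their SE.

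Whether the genotype difference itself differed between embryos and oocytes was tested in 1 fit of all 11 libraries. Of 44 members tested none was called, where 0.0118% of all genes were, and 4 had an unadjusted p under 0.05 (5.41% of all genes). DESeq2 called none of the members. For Fzd7 the embryo difference exceeded that of oocytes by 0.61 ± 0.19 in log2 units (SE, adjusted p = 0.91, edgeR). The other 3 were Porcn with 2.56 ± 0.93 in log2 units (SE, adjusted p = 0.91, edgeR), Dvl3 with 0.34 ± 0.13 in log2 units (SE, adjusted p = 0.91, edgeR) and Lef1 with 0.42 ± 0.18 in log2 units (SE, adjusted p = 0.91, edgeR). Fzd8 followed with -0.91 ± 0.47 in log2 units (SE, adjusted p = 0.93, edgeR), the opposite sign. The Porcn value rests on 2 reads in knockout oocytes.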

How the data were processed

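Total RNA of pooled oocytes or 2-cell embryos was made into SoLo RNA-Seq libraries, per the labels' protocols. The authors deposited whole-number read counts for 24421 genes with a width per gene. STAR 2.5.0a, SAMtools and the build GRCm38 (mm10) are named in, and taken per, the submitters' processing notes. The counting program, strand handling and definition of the deposited width are unknown here. Symbols, coordinates and promoters came from RefSeq (GRCm38.p6), where 24387 identifiers matched and the 34 others held at most 0.0325% of a library. Of the members, 14 overlap another gene of the table.

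The members, gene lists and tests were chosen with earlier results of these data known. Libraries were grouped by genotype and stage as labelled, each being a separate pool of females. No 2 libraries of a group were duplicates (chi-square per degree of freedom 5.10 to 37.2). Tests used edgeR 4.0.16 in R 4.3.3: filterByExpr (count minimum 10, total minimum 15), TMM factors, robust quasi-likelihood F tests and Benjamini-Hochberg adjusted p across every tested gene, called under 0.05. The SE is the log2 change over the square root of F. Genotypes were compared within each stage, stages within each genotype, and the genotype effects between stages in 1 fit. The method was tested on simulated data. A count of 0 allows up to 0.0754 to 0.167 CPM per library (3 reads). This floor and the 95% intervals of ratios cover counting error only, because reads copied by PCR are not independent molecules. Per-length levels are CPM per kilobase of the deposited width. Members with a mean of at least 1 CPM in a group were named with values. Fold, SE and adjusted p were given for the 5 members with the smallest p in each genotype comparison and for stage calls at 10 CPM or more in the higher group. Other stage calls with their values, the list genes beyond the 4 with the smallest p, and overlapping genes were named after their values were seen. Alternatives were DESeq2 1.42.0, other scalings and filters, each library left out, 1 fit of all 11 libraries and a replicate block. Protein sequences were not used here.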

Additional observations from a re-analysis of the deposited data

How the results depend on the processing

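Between genotypes, the count of 0 called members in oocytes became 1 (Tcf7) with DESeq2 and 1 without the low-count filter, and leaving out 1 library gave 0 to 1. In embryos it became 1 (Fzd7) without the filter, and leaving out 1 library gave 0 to 0, as for the difference between stages (0 to 0). With the filter removed, more genes of few reads enter the test. Leaving out 1 library gave 16 to 18 members higher and 15 to 17 lower between control stages, and 14 to 20 higher and 15 to 16 lower between knockout stages. Without both embryo libraries rich in Lars2 reads, a setting chosen after seeing the data, the embryo difference of Wnt7b turned to -0.24 on the log2 scale, and the cause was not tested. Over all settings, 101 of 105 counts stayed within 1.5 times the main count. Of 1320 values of single members (the tested members between stages and the 5 with the smallest p between genotypes), 1268 kept their direction and side of the threshold, 22 lost the call, 9 gained it and 21 turned. Besides Tcf7 and Fzd7, the gained calls were those of Lrp6 and Znrf3 between control stages without control embryo replicate 1, and between knockout stages of Znrf3 without maternal knockout embryo replicate 2 and of Fzd8 without replicate 3. Apart from Wnt7b, the turned values were between knockout stages, none of them called in either setting, and the cause was not tested. Lrp6 became 0.013 with DESeq2, 0.013 with RLE factors and 0.00051 with upper-quartile factors. Znrf3 became 0.074 with DESeq2, 0.075 with RLE factors, 0.039 without TMM, 0.063 with upper-quartile factors and 0.017 with a minimum of 1 CPM, and ran from -0.37 to 0.25 without 1 library. Wnt5a became -0.19 with the replicate block. Without 1 library Wnt5a ran from -0.97 to 0.57, Wnt8a from -0.11 to 1.45, Fzd8 from -0.11 to 0.99 and Fzd10 from -0.29 to 1.03, each lowest without maternal knockout embryo replicate 2, and with the same values without both libraries rich in Lars2. The lost calls were those of Wnt8a and Tcf7l1 between control stages and of Wnt2, Wnt8b, Fzd1 and Tcf7l1 between knockout stages. Wnt2, at 0.317 CPM (36 reads) in knockout oocytes and 0.108 CPM (5 reads) in maternal knockout embryos, lost its call in 9 of 11 alternatives. In controls Wnt2 was at 0.206 CPM in oocytes and 0.192 CPM in embryos and had too few reads for the test.

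Replicate numbers did not pair the libraries: over 15 same-numbered pairs the correlation of deviations ran from -0.22 to 0.23 and exceeded 0.1 in 2. Some differently numbered oocyte libraries had larger values. Control replicate 1 with knockout replicate 2 gave 0.31, control replicate 3 with knockout replicate 1 gave 0.30, and control replicate 3 with knockout replicate 2 gave -0.40. Whether a batch under other numbers links the libraries was not tested. With a replicate block, the counts were 0 in oocytes, 0 in embryos, 0 for the difference, 18 higher and 15 lower between control stages, and 19 higher and 15 lower between knockout stages. Depth limits the ligands most: a gene with no read may lie at up to 0.167 CPM in the shallowest library. The maternal knockout embryos had 2 libraries, so their spread is estimated mostly from the controls.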

Other observations

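The make-up of the scarce ligand transcripts differed between stages. Per kilobase, Wnt7a held 67.0% ± 5.46 of the summed ligand level in control oocytes and 70.8% ± 5.21 in knockout oocytes (SD, n = 3). In control embryos Wnt7a held 10.6% ± 6.16, beside Wnt7b with 25.6% ± 11.4 and Wnt8a with 22.7% ± 7.72, and the SDs of the 3 overlap. In control embryo replicate 2 Wnt7a (17.6%) exceeded Wnt7b (14.8%). In maternal knockout embryos Wnt7b held 33.8% ± 4.36 and Wnt8a 9.79% ± 3.17 (SD, n = 2). Wnt8a, an early mesoderm ligand, rests on 24 to 50 reads per group.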
